A study of Sus scrofa with 4 samples.

Results

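The genes described here make, sense, take up and move cholesterol, and they were followed through the cells of the pig conceptus and of the uterine lining on days 9 and 12 of pregnancy. Members were taken by symbol, with no measured value in the rule, though the list was drawn up with earlier results of these data known. Of 31 symbols listed, 30 matched exactly 1 of the 21280 genes of the count tables, and EBP was not analysed here. The 30 fall into 4 roles. Mevalonate steps are ACAT2, HMGCS1, MVK, PMVK, MVD, IDI1, FDPS and GGPS1. Squalene and sterol steps are FDFT1, SQLE, LSS, CYP51A1, TM7SF2, MSMO1, NSDHL, HSD17B7, SC5D and DHCR7. Sterol sensing is carried by SREBF1, SREBF2, SCAP, INSIG1 and INSIG2. Uptake, transport, efflux and storage are carried by STARD4, NPC1, NPC2, SCARB1, ABCA1, SOAT1 and LRP8. The first 2 roles together hold 18 enzymes, whose summed level is used below as 1 measure of the synthesis route.

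Cells build cholesterol from acetyl-CoA. The early enzymes lead through mevalonate to farnesyl diphosphate, which also feeds protein prenylation, dolichol and ubiquinone. Squalene synthase (FDFT1) commits the route to sterols, and the later enzymes turn squalene into lanosterol and then cholesterol. The route is read by its product: when membranes of the endoplasmic reticulum are poor in sterol, SCAP carries the SREBP factors (encoded by SREBF1 and SREBF2) to the Golgi, where they are cut free to act in the nucleus. INSIG1 and INSIG2 hold SCAP back when sterol is plentiful, and INSIG1 is itself an SREBP target. In the elongating pig conceptus sterol also serves as the raw material of oestrogen, the signal by which the trophectoderm announces pregnancy.

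The 4 groups were Sus scrofa embryo at day 9, embryo at day 12, endometrium at day 9 and endometrium at day 12 of pregnancy, untreated in the labels, with 1 library each. The embryos were dissociated with papain and dispase and the endometrium with collagenases and dispase, and both passed through red blood cell lysis. Breed, genotype, age and the number of animals or conceptuses behind a library are not given in the sources used here. With 1 library per group no comparison had a replicate check, so none was tested. Each level below is the summed count of unique molecules (UMIs) of a class of cells, scaled to counts per 1000000 UMIs of that class (CPM). Its 95% interval is exact Poisson for a level and exact binomial for a ratio, and covers counting error only, not the spread between animals.

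Deposited totals ran from 27250593 to 109449139 UMIs per library, and 7001 and 6764 embryo cells and 7984 and 8962 endometrial cells were kept, days 9 and 12 in that order. Median UMIs per cell were 11884 and 9343.5 in the embryo libraries against 2639 and 2233 in the endometrial ones. Between 54 and 105 barcodes of kept cells were shared by each pair of libraries. Uncalled barcodes stood only in the table of the day 9 embryo. Of the barcodes of the other libraries, 89.3% to 99.9% stood in that table, called cells included. Those of its barcodes with 1 to 100 UMIs hold free RNA. Their enzyme sum was 1338.5 CPM against 1459.9 CPM in the kept cells of that library.

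Cells were clustered without the 30 members, and clusters were named from marker lists; the ending "-like" marks a name given this way. The embryo classes were hypoblast-like (future yolk sac endoderm, 5852 cells on day 9 and 2619 on day 12), trophectoderm-like (future placenta, 653 and 3268), and, on day 12, epiblast-like (146, the source of the fetus) and mesoderm-like (213). Each library was clustered alone, so the clusters that hold a class were not matched between days. Hypoblast-like cells were day 9 clusters 0 to 4 and day 12 clusters 1, 5, 6, 7 and 12. Trophectoderm-like cells were day 9 cluster 7 and day 12 clusters 2, 3, 9 and 10. The endometrial classes with 50 cells or more on both days were stromal-like (4378 and 5612), epithelial-like (672 and 354), blood endothelial-like (177 and 816), macrophage or monocyte-like (615 and 610), T or NK cell-like (517 and 660), smooth muscle or pericyte-like (580 and 392) and B or plasma cell-like (78 and 65). Ciliated epithelial-like cells (91) were named on day 9. The markers of the labelled tissues were present: the hypoblast list summed to 27752 and 28435 CPM in hypoblast-like cells, and the stromal list to 51466 and 60997 CPM in stromal-like cells. The clusters were named from these same lists, so the sums cannot check the names.

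**Figure D1:**
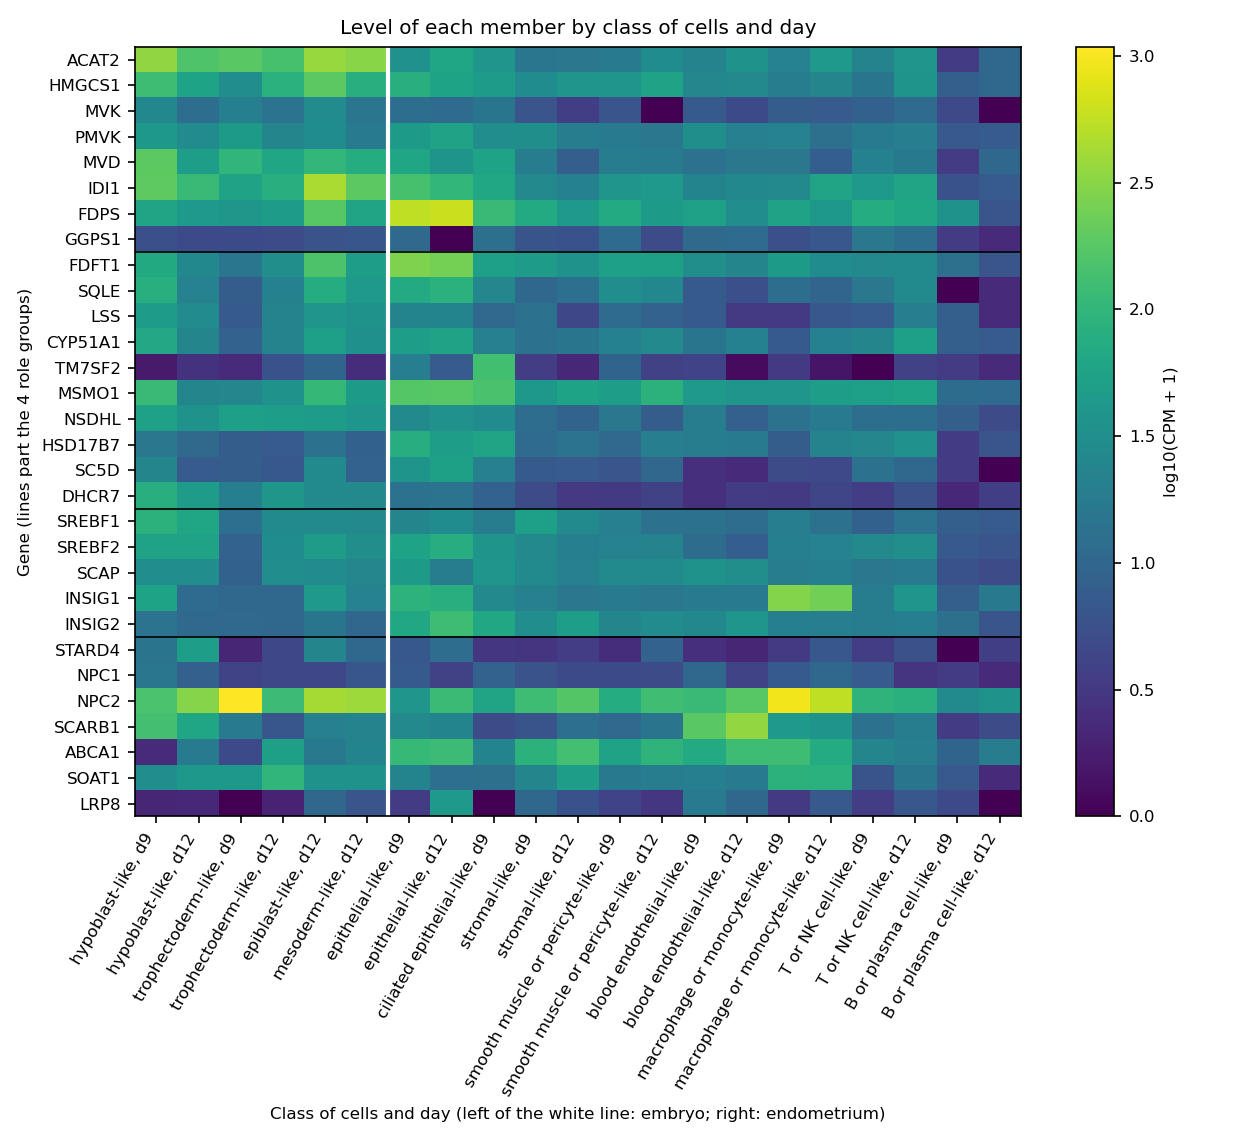
Level of each of the 30 members, as log10(CPM + 1), in every named class of cells; columns left of the white line are embryo and right of it endometrium, d9 and d12 are the days, and horizontal lines part the 4 roles. Among the brightest cells are NPC2 in day 9 trophectoderm-like cells (1084 CPM) and day 9 macrophage or monocyte-like cells (935 CPM), and FDPS in epithelial-like cells (549 and 614 CPM).

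Of the named day 9 embryo classes, the hypoblast had the higher level of the synthesis route. The 18 enzymes summed to 1512 CPM in hypoblast-like cells (1503 to 1520) and to 615 CPM in trophectoderm-like cells (592 to 639). Of the 18 enzymes, 16 had their higher level in hypoblast-like cells, 14 of them with intervals clear of the trophectoderm-like value. How many of all genes did so was not counted, so this count has no yardstick. ACAT2, the thiolase that opens the route, was at 335 CPM in hypoblast-like and 182 CPM in trophectoderm-like cells. MVD, which makes isopentenyl diphosphate, was at 187 and 98.7 CPM, and its isomerase IDI1 at 192 and 54.5 CPM. The gap was wider for SQLE, the squalene epoxidase, at 80.3 and 6.76 CPM. Sensing genes followed the same order, with SREBF1 at 88.9 and 11.7 CPM and SREBF2 at 54.6 and 8.11 CPM. SCAP was at 30.0 and 7.66 CPM, and INSIG1 at 57.3 and 9.24 CPM. INSIG2 was at 13.2 CPM (12.4 to 14.0) and 9.92 CPM (7.21 to 13.3), with overlapping intervals.

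Transport genes had no common order between the day 9 embryo classes. NPC2, the soluble protein that lifts cholesterol out of the lysosome, was at 1084 CPM in trophectoderm-like cells (1054 to 1115) and 149 CPM in hypoblast-like cells (146 to 152). Its membrane partner NPC1 was low in both, at 3.16 and 14.4 CPM. SCARB1, the receptor that takes cholesteryl ester from high-density lipoprotein, was at 134 CPM in hypoblast-like and 17.1 CPM in trophectoderm-like cells. ABCA1, the pump that loads cholesterol onto apolipoprotein, was near its floor in both, at 1.35 and 3.83 CPM. The day 9 trophectoderm-like cluster had a median of 5703 UMIs and 0.547% mitochondrial UMIs per cell, against 12552 and 3.47% in hypoblast-like cells. The part of this difference in cell quality in the levels was not tested.

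By day 12 the hypoblast held less of the route. In hypoblast-like cells the enzyme sum was 681 CPM (671 to 690), 2.22-fold lower than on day 9 (2.19 to 2.25). All 16 enzymes at 5 CPM or more on a day had a lower level on day 12, with a median log2 ratio (1 CPM added) of -1.09, against -0.16 over the 8242 genes at that level. Over all members, 27 reached 5 CPM (GGPS1, TM7SF2 and LRP8 did not), 22 were lower and 5 higher. Counting as 2-fold a log2 ratio of at least 1 in size, 11 were 2-fold or more lower, where 8.89% of all genes were, and 3 were 2-fold or more higher, where 12.2% of all genes were. The interval excluded 1 for 21 of the 22 lower members and for 4 of the 5 higher ones.

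Among the mevalonate steps, MVD stood at 187 CPM in the day 9 cells and at 47.3 CPM in those of day 12, 3.95-fold lower (3.74 to 4.18). ACAT2 was at 335 and 157 CPM, 2.14-fold lower (2.08 to 2.21). HMGCS1, which makes HMG-CoA, was at 124 and 56.0 CPM, and mevalonate kinase (MVK) at 25.3 and 11.4 CPM. The difference was smaller for farnesyl diphosphate synthase (FDPS), at 58.7 and 43.0 CPM, and phosphomevalonate kinase (PMVK), at 40.1 and 28.5 CPM.

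In the sterol arm all 9 measured enzymes were lower. MSMO1, which oxidises the methyl groups of lanosterol-derived sterols, was at 112 and 23.5 CPM, 4.74-fold lower (4.39 to 5.13). SQLE was at 80.3 and 21.2 CPM, 3.79-fold lower (3.50 to 4.13). The desaturase gene SC5D was at 22.9 and 6.42 CPM, 3.57-fold lower (3.07 to 4.17). The demethylase gene CYP51A1 was at 66.9 and 23.0 CPM and FDFT1 at 68.7 and 24.8 CPM. Lanosterol synthase (LSS), NSDHL, HSD17B7 and DHCR7, which removes the last excess double bond, were 1.61-fold, 1.499-fold, 1.505-fold and 1.74-fold lower.

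Of the sensing genes, INSIG1 had the lowest ratio of all members, with 57.3 CPM early and 10.6 CPM late, 5.41-fold lower (4.83 to 6.09). The genes of the sensor itself had like levels on both days: SREBF2 was at 54.6 and 55.2 CPM and SCAP at 30.0 and 29.6 CPM, with intervals of the ratio of 0.955 to 1.07 and 0.911 to 1.07. SREBF1, whose product is tied more to fatty acid synthesis, was at 88.9 and 62.3 CPM, and INSIG2 at 13.2 and 9.91 CPM.

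Transport and storage genes were mostly higher on day 12 in the same cells. ABCA1 was at 1.35 and 16.9 CPM, 12.5-fold higher (10.1 to 15.6), its day 9 level lying under that of free RNA in the library (13.4 CPM, or 4.26 CPM from 5 counts in barcodes found in no other library). STARD4, which ferries cholesterol between membranes in the cytosol and is an SREBP target, was at 13.9 and 48.2 CPM, 3.48-fold higher (3.21 to 3.77). NPC2 was at 149 and 307 CPM, 2.06-fold higher (2.002 to 2.116), and SOAT1, which esterifies cholesterol for storage, at 29.4 and 41.1 CPM, 1.40-fold higher (1.301 to 1.498). Against these, SCARB1 was at 134 and 60.003 CPM, 2.23-fold lower (2.12 to 2.35), and NPC1 at 14.4 and 7.56 CPM.

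**Figure D2:**
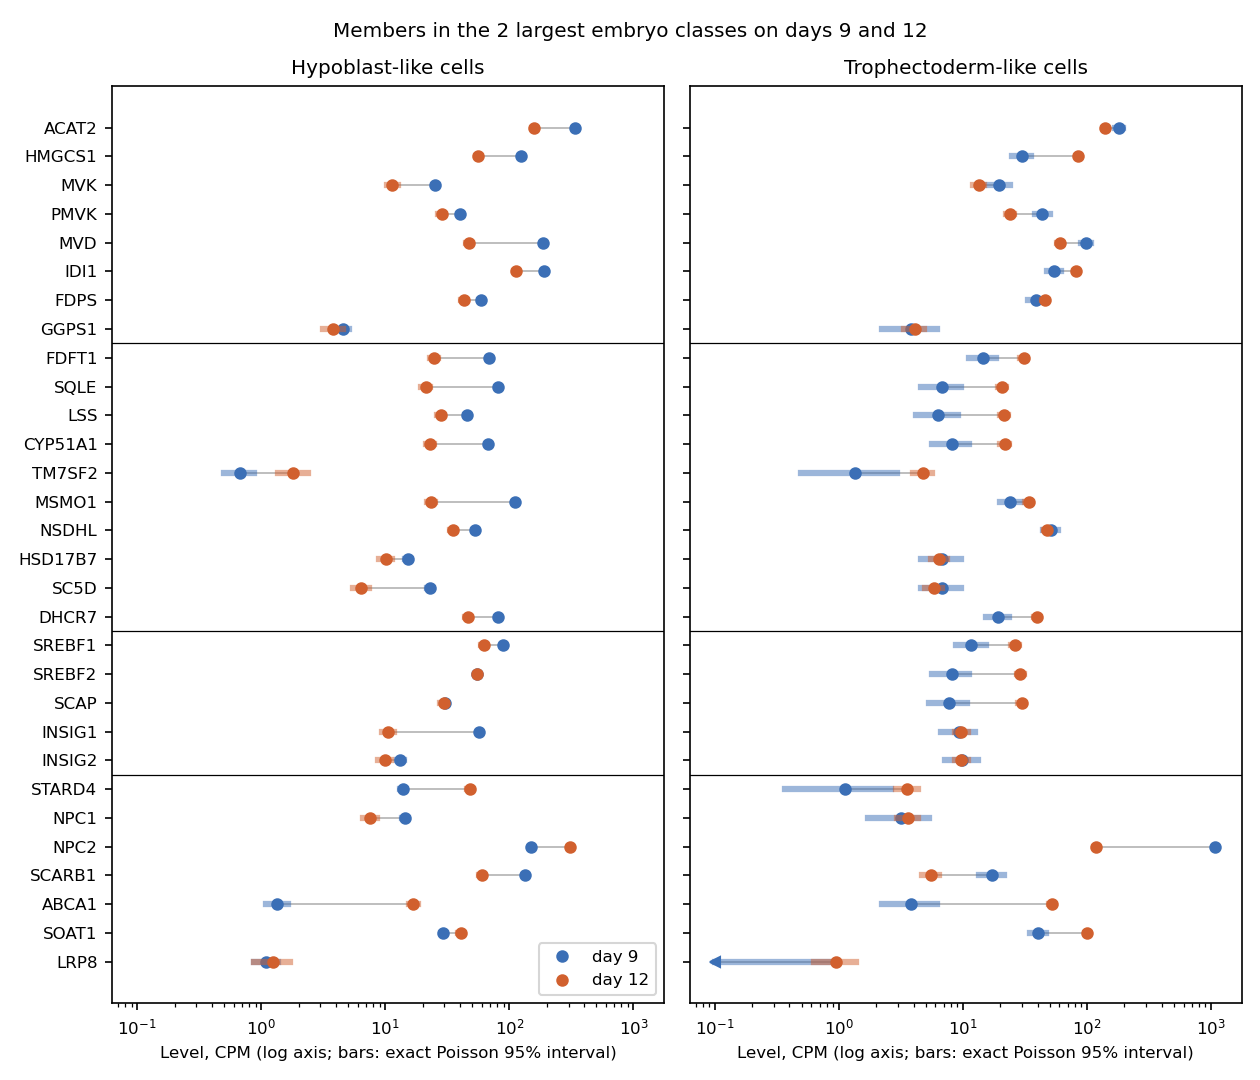
Level of each member in CPM (log axis) in hypoblast-like cells (left) and trophectoderm-like cells (right) on day 9 (blue) and day 12 (orange), with the exact Poisson 95% interval as a bar and a grey line joining the days; the triangle at 0.1 CPM marks LRP8 with 0 counts. On the left the enzymes and INSIG1 lie lower on day 12, while STARD4, NPC2, ABCA1 and SOAT1 lie higher; on the right NPC2 moves from 1084 to 118 CPM.

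The same counts were also set out cell by cell at equal depth, which adds no independent support, since cells of 1 library are not replicates. With every embryo cell thinned to 4000 UMIs, the median hypoblast-like cell held 6 enzyme UMIs on day 9 (quartiles 4 and 8) and 2 on day 12 (quartiles 1 and 4). Cells with no enzyme UMI were 0.596% on day 9 and 12.5% on day 12. This left out 145 and 211 shallower cells, and unthinned medians were 18 and 6 UMIs. Trophectoderm-like cells had a median of 2 on both days, with 155 and 800 cells left out.

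Other measures moved with the hypoblast comparison, and their part in it was not tested. Of 10 genes of the response to dissociation at 5 CPM or more, 9 were higher on day 12, with a median log2 ratio of 1.67, and all 12 mitotic genes measured were lower, with a median of -0.72. The trophectoderm marker list, of which all 20 genes were detected on both days, summed to 3165 CPM in hypoblast-like cells on day 9 and 6891 CPM on day 12. Over genes that reached 50 CPM on each day, the log2 ratios had a median of -0.16. With this shift taken out, 7 members were 2-fold or more lower, the median of the members was -0.60, and the log2 ratio of SCAP moved from -0.02 to 0.13.

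Within the hypoblast the day 12 clusters spread far more than the day 9 clusters. The 5 day 9 clusters had enzyme sums between 1469 and 1590 CPM, which is a narrow band. On day 12, cluster 7 (1007 cells) summed to 489 CPM and cluster 6 (1376 cells) to 722 CPM, while cluster 5 (94 cells), with the liver-type secreted protein genes FGB and AHSG among its leading genes, summed to 2909 CPM. In cluster 5 IDI1 was at 561 CPM, HMGCS1 at 440 CPM, FDFT1 at 213 CPM and INSIG1 at 97.5 CPM, above their day 9 class levels. STARD4 (114 CPM) and ABCA1 (105 CPM) were also higher there than in clusters 6 and 7, at 49.9 and 44.6 CPM for STARD4 and 11.5 and 18.3 CPM for ABCA1. Leaving cluster 5 out, a choice made after seeing the data, the day 12 enzyme sum was 626 CPM and the class 2.41-fold lower than on day 9. The small day 12 clusters 1 (74 cells, 12.7% mitochondrial UMIs) and 12 (68 cells) summed to 524 and 671 CPM.

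Lists of related genes described the wider lipid programme of the hypoblast-like cells. Beside them, of all 8242 genes at 5 CPM or more, 3406 were higher and 4836 lower on day 12. By 2-fold or more, 12.2% were higher and 8.89% lower. Of 11 measured genes of fatty acid synthesis, many of them SREBP targets, 10 were lower on day 12, 6 of them 2-fold or more, with a median log2 ratio of -1.06. The elongase gene ELOVL6 was at 635 and 171 CPM, the lipogenic carboxylase gene ACACA at 52.6 and 18.2 CPM, and PNPLA3 at 26.2 and 4.94 CPM. FADS2, a desaturase of polyunsaturated fatty acids, was the 1 that was higher, at 64.0 and 197 CPM. Of 9 other sterol transport genes 7 were higher, 5 of them 2-fold or more, with a median of 1.28. The lysosomal acid lipase gene LIPA, which frees cholesterol from ingested ester, was at 7.396 and 52.68 CPM, the endocytic receptor gene LRP2 at 43.5 and 256 CPM, and the ester hydrolase gene NCEH1 at 31.5 and 77.7 CPM, while clathrin heavy chain (CLTC) was at 126 and 95.7 CPM. Of 6 oxysterol receptor genes and targets 3 were higher and 3 lower; MYLIP, whose product sends lipoprotein receptors to breakdown, was at 2.58 and 39.8 CPM, 15.4-fold higher. Of 6 genes that process SREBP or turn over the enzymes, 3 were higher and 3 lower. Genes that use isoprenoids were lower in 5 of 6 (median -0.45), helpers of sterol synthesis in 3 of 5 (median -0.10) and steroid synthesis genes in 3 of 7 (median 0.23).

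In the trophectoderm SCAP, SREBF2, HMGCS1 and several sterol-arm enzymes were higher on day 12, while PMVK, MVD and ACAT2 were lower. The enzyme sum was 615 CPM on day 9 and 687 CPM on day 12, a ratio of 1.12 (1.07 to 1.16). Of the 25 members at 5 CPM or more, 15 were higher and 10 lower, and the median log2 ratio was 0.47 against 0.31 over all 7778 genes at that level. The 11 members that were 2-fold or more higher stand beside 29.2% of all genes, and the 2 that were 2-fold or more lower beside 10.1%. This count depends on 1 small day 9 cluster, described below.

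Sensing genes were low in day 9 trophectoderm-like cells. SCAP, at 7.66 CPM on the earlier day, was at 29.8 CPM on the later one, 3.89-fold higher (2.76 to 5.65). SREBF2 was at 8.11 and 29.0 CPM, 3.58-fold higher (2.56 to 5.15), and SREBF1 at 11.7 and 26.4 CPM. The inhibitors of SCAP had intervals of the ratio that held 1, with INSIG1 at 9.24 and 9.74 CPM and INSIG2 at 9.92 and 9.70 CPM. Among enzymes, LSS was at 6.31 and 21.5 CPM, SQLE at 6.76 and 20.7 CPM, and HMGCS1 at 29.8 and 84.7 CPM. CYP51A1, FDFT1 and DHCR7 were between 2.08-fold and 2.68-fold higher. PMVK (43.7 and 24.0 CPM), MVD (98.7 and 60.4 CPM) and ACAT2 (182 and 140 CPM) were lower, and NSDHL was at 50.9 and 47.6 CPM.

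The transport genes showed the largest differences of the class. NPC2, so abundant on day 9 (1084 CPM), was at 118 CPM on day 12, 9.16-fold lower (8.76 to 9.57). ABCA1 was at 3.83 and 52.4 CPM, 13.7-fold higher (8.52 to 23.6), from 17 counts on day 9. SOAT1 was at 40.6 and 99.3 CPM, 2.45-fold higher (2.10 to 2.86), and SCARB1 at 17.1 and 5.49 CPM, 3.12-fold lower (2.34 to 4.13). LRP8, a lipoprotein receptor, had 0 counts on day 9 and 27 on day 12, at least 1.40-fold higher with 3 counts in place of 0. Values for NPC1 and STARD4 stayed under 5 CPM on both days.

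A day 9 cluster of 87 cells bears on these values. Cluster 8 was led by SLC37A2 and by the trophectoderm genes HAND1 and GATA3, yet was nearest to the hypoblast by its marker list, and so stayed unnamed; its enzyme sum was 1172 CPM. Counting it as trophectoderm-like, a choice made after seeing the data, gave 740 day 9 cells, an enzyme sum of 734 CPM and a ratio of 0.936 (0.906 to 0.969), so the direction of the sum turned. The number of members 2-fold or more higher then dropped from 11 to 4, which were ABCA1, SCAP, SOAT1 and HMGCS1, at 12.3-fold, 2.62-fold, 2.62-fold and 2.16-fold. SQLE (1.15-fold higher), SREBF1 (log2 ratio 0.13), LSS (1.64-fold) and SREBF2 (1.78-fold) no longer passed, and INSIG1 became 1.80-fold lower. NPC2 remained 7.78-fold lower and SCARB1 6.47-fold lower. Calling day 9 cells at 1000 UMIs, a mitochondrial maximum of 10% and letting the members into the clustering each gave 4 higher members as well.

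Quality and marker values moved with the trophectoderm comparison too, and their part in it was not tested. Median mitochondrial UMIs were 0.547% on day 9 and 3.63% on day 12. Of 10 measured dissociation genes 9 were higher, with a median log2 ratio of 3.47, and 9 of 12 mitotic genes were lower. The hypoblast marker list summed to 4600 CPM on day 9, with 17 of 20 genes detected, and to 3278 CPM on day 12, with 20 detected. Over genes that reached 50 CPM on each day, the median was -0.29 on the log2 scale; with this shift taken out the median of the members was 0.81 and NSDHL and INSIG2 changed from lower to higher, at 0.19 and 0.23.

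Related lists in trophectoderm-like cells ran as follows, beside all 7778 genes at 5 CPM or more. Of those genes 4627 were higher and 3151 lower on day 12. By 2-fold or more, 29.2% were higher and 10.1% lower. All 6 measured genes of SREBP processing and enzyme turnover were higher on day 12, with a median of 1.19. Of 11 genes of fatty acid synthesis 9 were higher, among them FADS2 (41.0 and 204 CPM), FADS1 (17.8 and 84.0 CPM), FASN (52.5 and 189 CPM) and SCD (67.4 and 240.2 CPM), while ELOVL6 was at 258 and 83.5 CPM. Of 7 genes of steroid synthesis, which draws on cholesterol, 6 were lower and 5 of them 2-fold or more. HSD17B1 and CYP17A1 of this list are also trophectoderm markers from which clusters were named. HSD17B1 and CYP11A1 were among the leading genes of cluster 7, which alone holds the day 9 class. The steroid count is therefore not independent of how that class was formed. HSD17B1, which makes oestradiol, was at 3222 and 217 CPM, the electron donor gene FDXR at 173 and 53.4 CPM and STAR, the mitochondrial cholesterol importer, at 30.7 and 11.6 CPM, while aromatase (CYP19A1) was at 8.79 and 52.4 CPM. Other sterol transport genes were higher in 6 of 7 (median 0.92), and genes that use isoprenoids lower in 5 of 6 (median -0.59). RXRA, the partner of the oxysterol receptors, was at 4.96 and 66.4 CPM.

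Epiblast-like cells of day 12 had the highest enzyme level of the embryo classes. Their sum was 1881 CPM (1821 to 1943), against 1028 CPM in mesoderm-like cells (997 to 1060), 687 CPM in trophectoderm-like and 681 CPM in hypoblast-like cells; the intervals of those last 2 overlap. Of the 18 enzymes 15 were highest in epiblast-like cells, 11 of them with intervals clear of the next class. The share of all genes highest in these cells was not counted. IDI1 was at 445 CPM, ACAT2 at 368 CPM, HMGCS1 at 185 CPM, FDPS at 176 CPM and FDFT1 at 155 CPM. Mesoderm-like cells came next for ACAT2 (310 CPM), IDI1 (185 CPM), FDPS (58.6 CPM) and FDFT1 (47.8 CPM). NPC2 was high in both, at 418 and 392 CPM, with overlapping intervals. INSIG1 was at 41.4 CPM in epiblast-like cells, 21.1 CPM in mesoderm-like cells and 10.6 and 9.74 CPM in hypoblast- and trophectoderm-like cells. After thinning, the median epiblast-like cell held 7 enzyme UMIs and the median mesoderm-like cell 4. Day 9 embryo cluster 6, nearest to the epiblast but with 21 cells too small to be named, had an enzyme sum of 1688 CPM. The epiblast marker list, 10 of whose 15 genes were matched, had 8 detected in epiblast-like cells of day 12 and summed to 541 CPM. The trophectoderm list summed to 8761 CPM in those cells, against 23728 CPM in trophectoderm-like cells. In mesoderm-like cells the mesoderm list (13 of 14 genes detected) summed to 1623 CPM and the trophectoderm list to 13941 CPM. The part of trophectoderm RNA in these levels was not tested.

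**Figure D3:**
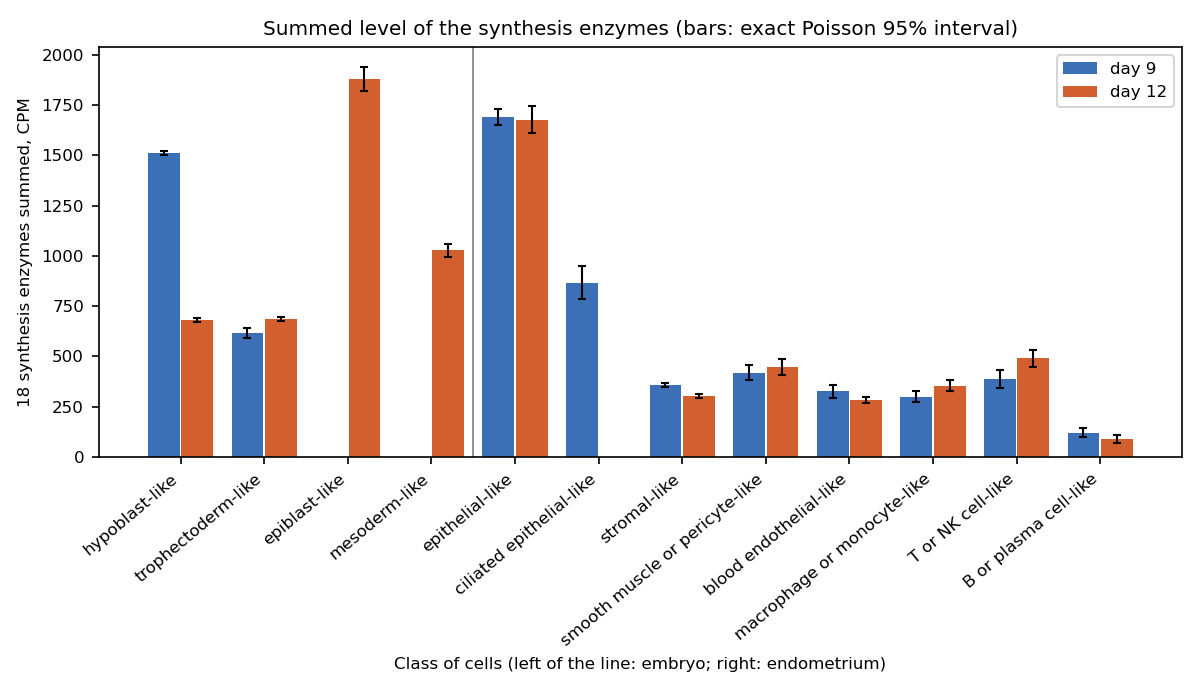
Summed level of the 18 synthesis enzymes in CPM (axis from 0) by class of cells, on day 9 (blue) and day 12 (orange), with exact Poisson 95% intervals; a missing bar means that no class of that name was found on that day. Day 9 hypoblast-like (1512 CPM), day 12 epiblast-like (1881 CPM) and epithelial-like cells of both days (1693 and 1679 CPM) stand above the other classes.

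**Figure D4:**
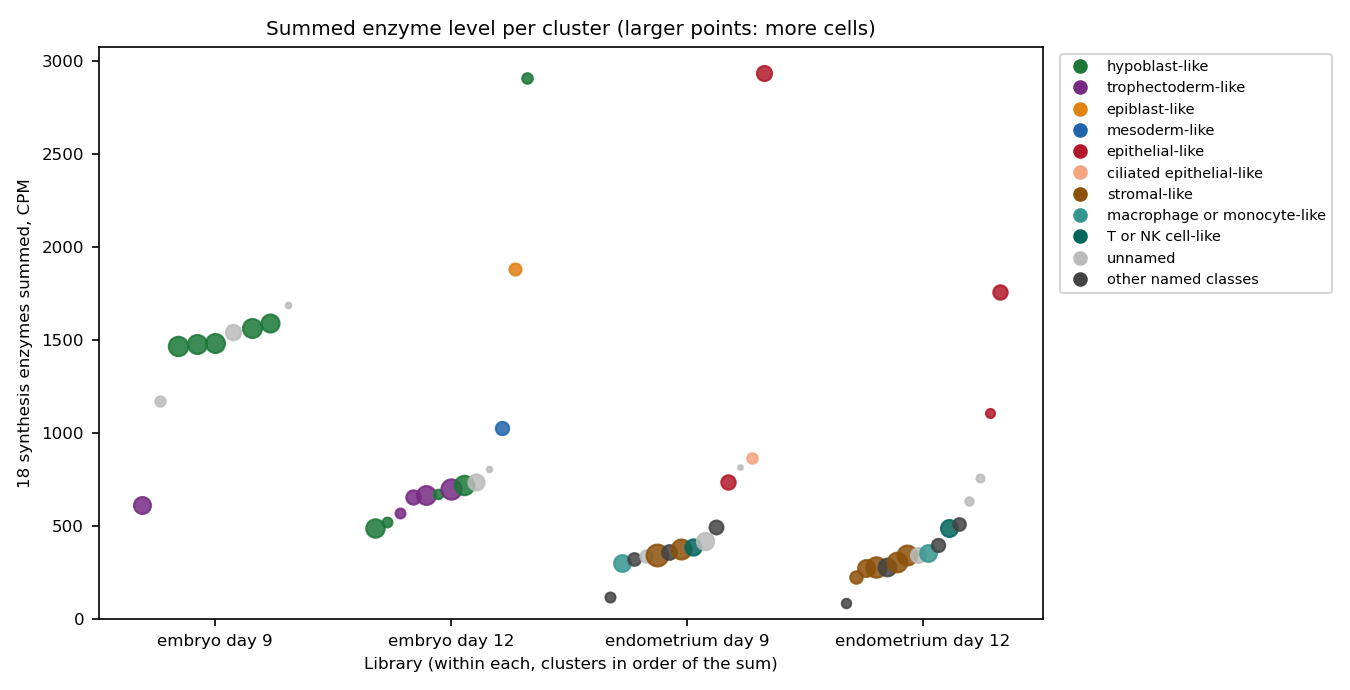
Summed level of the 18 enzymes in CPM for each cluster of each library, ordered by value within a library; point size grows with the number of cells and colour gives the class. Hypoblast-like clusters lie between 1469 and 1590 CPM on day 9 and between 489 and 2909 CPM on day 12, and the 2 day 9 epithelial-like clusters lie at 738 and 2935 CPM.

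In the endometrium epithelial-like cells had the highest level of the route among the named classes. The enzyme sum of epithelial-like cells was 1693 CPM on day 9 (1653 to 1733) and 1679 CPM on day 12 (1612 to 1748), a ratio of 0.992 (0.946 to 1.04). The other classes with cells on both days lay between 85.9 and 489 CPM, and ciliated epithelial-like cells of day 9 at 866 CPM. By counts, epithelial-like cells held 7022 of the 14991 enzyme UMIs of day 9 and 2382 of the 10008 of day 12. Stromal-like cells held 4650 and 4016. In epithelial-like cells FDPS alone was 32.4% of the sum on day 9 and 36.6% on day 12, where ACAT2 led in the embryo with 22.5% and 22.3% of the whole-library sum. FDPS was at 549 and 614 CPM, FDFT1 at 277 and 253 CPM and MSMO1 at 170 and 175 CPM. Epithelial-like cells had the highest level of the endometrial classes for 13 of 18 enzymes on day 9 and 17 of 18 on day 12. Here too the share of all genes was not counted.

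Between days, all 30 members reached 5 CPM in epithelial-like cells, 17 were higher and 13 lower, and the median log2 ratio was 0.05 against -0.16 over all 10484 genes at that level. The 2 members that were 2-fold or more higher stand beside 11.1% of all genes and the 3 that were lower beside 15.1%. LRP8 was nearly absent early, at 2.41 CPM, and at 42.3 CPM on day 12, 17.5-fold higher (8.91 to 38.4), from 10 and 60 counts. NPC2 was at 37.4 and 116 CPM, 3.09-fold higher (2.47 to 3.88), and INSIG2 at 63.4 and 121 CPM, 1.91-fold higher (1.57 to 2.33). ACAT2 (33.0 and 60.6 CPM) and SC5D (36.2 and 52.2 CPM) were also higher. SCAP was at 44.1 and 18.3 CPM, 2.41-fold lower (1.59 to 3.78), and TM7SF2 at 19.04 and 6.34 CPM. GGPS1, which makes geranylgeranyl diphosphate for prenylation, had 41 counts on day 9 and 0 on day 12, at least 4.67-fold lower with 3 counts in place of 0. INSIG1 was at 89.7 and 81.8 CPM, SREBF2 at 57.1 and 76.1 CPM and SREBF1 at 23.1 and 28.9 CPM. SOAT1, MVD, HSD17B7 and IDI1 were between 1.41-fold and 1.85-fold lower.

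The day 9 epithelium held 2 clusters with unlike enzyme levels, and which of them is counted sets the day comparison. Cluster 5 (300 cells), with AQP3 among its leading genes, summed to 738 CPM, and cluster 12 (372 cells), led by DEFB1, FXYD4 and RAB26 among others, to 2935 CPM. FDPS was at 133 and 1090 CPM in them, FDFT1 at 60.1 and 560 CPM, INSIG1 at 37.1 and 158 CPM and ABCA1 at 38.8 and 193 CPM. On day 12, clusters 8 (59 cells) and 9 (295 cells) summed to 1111 and 1759 CPM. With the highest Scrublet scores removed, cells like cluster 5 were named with the ciliated class and 321 epithelial-like cells remained on day 9. The sum was then 3083 and 1778 CPM, a ratio of 0.577 (0.548 to 0.607), 9 members were 2-fold or more lower, the median log2 ratio was -0.43, and SCAP was at 24.1 and 20.9 CPM. LRP8 (11.9-fold higher) and NPC2 (2.98-fold higher) kept their direction there. Stromal markers, all 14 detected, summed to 5940 and 7247 CPM in epithelial-like cells and epithelial markers to 3877 and 6992 CPM, and the part of this in the comparison was not tested.

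Related genes of epithelial-like cells included ELOVL6 at 28.0 and 161 CPM, LIPA at 141 and 408 CPM and the lipoprotein receptor gene VLDLR at 16.4 and 47.2 CPM. The sterol exporter gene ABCG1 was at 69.4 and 14.1 CPM and LRP2 at 38.8 and 12.7 CPM. Of 12 measured genes of other sterol transport 5 were higher and 7 lower, and of 10 of fatty acid synthesis 3 were higher and 7 lower. Over all 10484 genes at 5 CPM or more, 4393 were higher and 6091 lower.

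Ciliated epithelial-like cells were set apart by 1 member. TM7SF2, a sterol reductase, was at 129 CPM in the 91 ciliated cells of day 9 (99.02 to 164), and the next class, epithelial-like, was at 19.04 CPM. Day 12 cluster 14, nearest to the ciliated class but with 43 cells too small to be named, had TM7SF2 at 144 CPM. The enzyme sum of the ciliated cells was 866 CPM (786 to 952), led by MSMO1, TM7SF2 and FDPS.

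Stromal-like cells, the bulk of the endometrium, had a lower level of the route than epithelial-like cells. The share of members 2-fold apart between days was near that of all genes. The enzyme sum of stromal-like cells was 357 CPM on day 9 and 301 CPM on day 12, a ratio of 0.845. Of 26 members at 5 CPM or more, 12 were higher and 14 lower, with a median log2 ratio of -0.18 against -0.10 over 10089 genes. The 2 that were 2-fold or more higher, SOAT1 and SCARB1, stand beside 6.14% of all genes, and the 2 that were lower, LSS and MVD, beside 7.75%. SOAT1 was at 22.8 and 47.4 CPM, 2.08-fold higher (1.81 to 2.40), and SCARB1 at 5.22 and 11.9 CPM. Markers of blood endothelium, the class with the highest SCARB1, summed to 41.4 and 70.8 CPM in stromal-like cells, with all 12 detected, and their part was not tested. LSS was at 12.6 and 3.53 CPM, 3.57-fold lower (2.57 to 5.05), and MVD at 18.03 and 7.28 CPM. SREBF1 was at 50.9 and 27.4 CPM, 1.86-fold lower (1.63 to 2.12), FDPS at 71.4 and 42.6 CPM and PMVK at 31.5 and 18.2 CPM. SREBF2, SCAP and INSIG1 were each lower by a like amount, at ratios of 0.744, 0.744 and 0.741, while INSIG2 was at 29.6 and 49.3 CPM, 1.66-fold higher (1.47 to 1.89).

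Of the 5 transport genes measured in stromal-like cells 4 were higher on day 12. ABCA1 was at 87.9 and 132 CPM, 1.505-fold higher (1.40 to 1.62), and NPC2 at 122 and 167 CPM. MSMO1 was the enzyme with the highest ratio at 20 CPM or more, at 40.4 and 57.2 CPM. NPC1 was at 4.99 and 3.75 CPM. Of 10 other sterol transport genes 9 were lower, 2 of them 2-fold or more, with a median log2 ratio of -0.37. Over all 10089 genes at 5 CPM or more, 4372 were higher and 5717 lower, and 7.75% were 2-fold or more lower. Related genes that differed were FADS1 (43.3 and 11.4 CPM), FASN (44.8 and 17.8 CPM), MYLIP (57.1 and 162 CPM) and the oestrogen sulfotransferase gene SULT1E1 (4.14 and 47.4 CPM). Of 11 dissociation genes 10 were higher in stromal-like cells, with a median log2 ratio of 0.66, and macrophage markers summed to 2830 and 1249 CPM in them. The part of these in the comparison was not tested. Clusters 0 and 1 held the stroma on day 9 and clusters 0, 1, 2, 3 and 11 on day 12, not matched between days. Their enzyme sums ran from 342 to 376 CPM and from 224 to 345 CPM.

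Immune and vascular classes were marked by single members. Among the named endometrial classes, INSIG1 was highest in macrophage or monocyte-like cells on both days. It was at 295 CPM (270 to 322) and 241 CPM (221 to 263), with epithelial-like cells next at 89.7 and 81.8 CPM. NPC2 was at 935 and 558 CPM in macrophage or monocyte-like cells, 1.67-fold lower on day 12 (1.55 to 1.81), and SOAT1 at 88.4 and 84.8 CPM. Both stood above every other named endometrial class. Unnamed day 12 endometrial cluster 15 (48 cells), nearest to the B or plasma cell class, had INSIG1 at 337 CPM and NPC2 at 821 CPM. Unnamed day 9 endometrial cluster 8 (16 cells), nearest to the same class, had them at 244 and 574 CPM. ABCA1 was at 123 and 73.7 CPM in macrophage or monocyte-like cells, 1.67-fold lower (1.36 to 2.07). Their enzyme sum was 299 and 354 CPM, a ratio of 1.18. Of 27 members measured 14 were higher, 6 of them 2-fold or more beside 6.35% of all genes, and none of the 13 lower ones was 2-fold lower, where 10.1% of all genes were. IDI1 was at 25.7 and 57.8 CPM, CYP51A1 at 6.27 and 20.5 CPM and HSD17B7 at 6.84 and 21.9 CPM, each from 11 to 45 counts on day 9. LSS, STARD4 and LRP8, the other members 2-fold or more higher, rested on 4 counts each on day 9. ACAT2 was at 21.1 and 42.4 CPM, just under the threshold with 1 CPM added. PMVK and FDFT1 were 1.74-fold and 1.54-fold lower. The macrophage marker list itself summed to 82312 and 49909 CPM, and 11 of 11 mitotic genes were higher on day 12.

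SCARB1 was highest in the blood vessels. It was at 181 CPM in blood endothelial-like cells on day 9 (158 to 206) and 351 CPM on day 12 (334 to 369), 1.94-fold higher (1.69 to 2.24), while the next endometrial class, macrophage or monocyte-like, was at 42.8 and 35.9 CPM. ABCA1 was at 70.5 and 124 CPM, NPC2 at 110 and 174 CPM, INSIG2 at 25.1 and 38.3 CPM and ACAT2 at 21.9 and 35.4 CPM. FDPS was at 53.3 and 29.9 CPM, 1.78-fold lower (1.31 to 2.40), and PMVK at 31.3 and 19.9 CPM. None of 26 measured members was 2-fold or more higher, where 4.35% of all genes were, and LSS, NSDHL and NPC1 were 2-fold or more lower, where 7.84% of all genes were. The sum was 325 and 282 CPM. All 10 mitotic genes measured were higher on day 12, with a median of 2.39, and macrophage markers summed to 1939 and 1089 CPM in these cells; their part was not tested.

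T or NK cell-like cells had an enzyme sum of 386 CPM on day 9 and 489 CPM on day 12, a ratio of 1.27. Of 27 members measured 19 were higher and 8 lower, 5 of them 2-fold or more higher beside 7.75% of all genes and 1, NPC1, 2-fold or more lower beside 11.9%. HMGCS1 was at 14.1 and 36.0 CPM, 2.55-fold higher (1.28 to 5.53), CYP51A1 at 23.1 and 51.1 CPM and INSIG1 at 17.9 and 37.9 CPM. LSS and SOAT1, the other 2, rested on 5 and 4 counts on day 9. Intervals held 1 for 23 of the 27. With 2000 UMIs per cell required, the sum ratio was 1.03, 3 members were 2-fold or more higher and the log2 ratio of INSIG1 was 0.07. Of 12 mitotic genes 11 were higher on day 12.

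Smooth muscle or pericyte-like cells had an enzyme sum of 418 and 445 CPM. MSMO1 was at 49.5 and 88.5 CPM, 1.79-fold higher (1.28 to 2.50), NPC2 at 75.4 and 127 CPM, ABCA1 at 55.6 and 94.4 CPM, and FDPS at 70.9 and 43.7 CPM, 1.62-fold lower (1.12 to 2.38). STARD4 was the 1 member 2-fold or more higher, from 2 and 8 counts, beside 7.87% of all genes. MVK, GGPS1, TM7SF2 and NSDHL were 2-fold or more lower, from 7 to 20 counts on day 9, beside 8.11%. B or plasma cell-like cells had the lowest sum of the classes, at 118 and 85.9 CPM, with median totals of 10461.5 and 10914 UMIs per cell. Unthinned, their median cell held 1 enzyme UMI on both days, against 1 and 0 in stromal-like cells. In B or plasma cell-like cells 4 members were 2-fold or more higher beside 8.5% of all genes and 5 lower beside 20.4%. The interval excluded 1 for FDPS alone, with 29 and 4 counts.

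**Figure D5:**
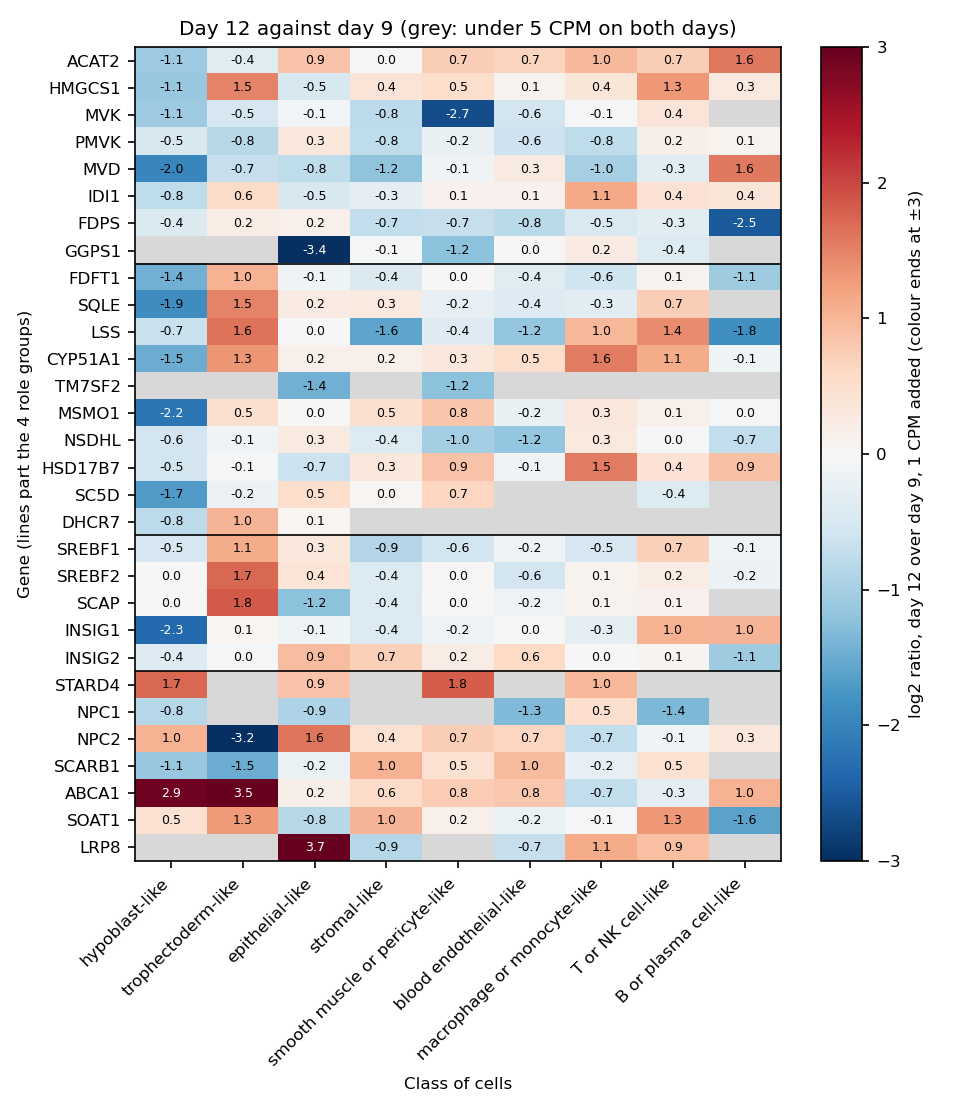
Log2 ratio of day 12 over day 9 (1 CPM added) of each member in the 9 classes found on both days, with the value printed in each cell; red is higher on day 12, blue lower, grey under 5 CPM on both days, and the colour ends at a log2 ratio of ±3. The hypoblast-like column is blue for the enzymes and INSIG1 (-2.33) and red for ABCA1 (2.93), and the trophectoderm-like column is red for SCAP (1.83) and dark blue for NPC2 (-3.18).

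With all cells of a library summed, cell makeup enters the values: hypoblast-like cells were 83.6% of the day 9 embryo and 38.7% of the day 12 embryo, and a change in the share of a cell type cannot be told apart from a change within it. The embryo sum was 1460 CPM at first and 742 CPM on day 12, 1.97-fold lower (1.95 to 1.99). Of 27 measured members 8 were 2-fold or more lower in the whole embryo, where 7.58% of all genes were, and 2, ABCA1 and SOAT1, were 2-fold or more higher, where 13.0% were. The endometrial sum was 575 and 393 CPM. Of its 28 measured members TM7SF2, LSS, MVD and FDPS were 2-fold or more lower, where 7.48% of all genes were. SCARB1 alone was 2-fold or more higher, where 6.13% were; it was at 20.6 and 73.5 CPM, in libraries with 177 and 816 blood endothelial-like cells.

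Set side by side, the embryo had more of the synthesis route and less of the export pump than the endometrium. The whole-library enzyme sum of the embryo was 2.54 times that of the endometrium on day 9 (2.50 to 2.58) and 1.89 times on day 12 (1.85 to 1.93). Of 30 members, 21 were higher in the embryo on day 9, 8 were lower, and 1 (SCAP) had an interval holding 1. On day 12 the counts were 19, 10 and 1 (SC5D). The like share of all genes was not taken, so these counts cannot show whether the members stand apart from other genes. ACAT2 was 17.4-fold higher in the day 9 embryo (15.9 to 19.1) and DHCR7 15.4-fold higher (12.9 to 18.5), at 328 against 18.8 CPM and 76.2 against 4.95 CPM. On day 12 these were 6.53-fold and 13.4-fold higher. ABCA1 was at 1.53 CPM in the day 9 embryo and 83.6 CPM in the day 9 endometrium, 54.8-fold lower, and 3.51-fold lower on day 12. INSIG1 was 1.09-fold higher in the embryo on day 9 and 3.47-fold lower on day 12, and SCARB1 6.06-fold higher on day 9 and 2.31-fold lower on day 12. FDPS was 2.50-fold and 1.43-fold lower in the embryo. The tissues differed in dissociation, depth and cell makeup, so these ratios describe the libraries.

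Free RNA of the day 9 embryo library bears on its low members. In barcodes of 1 to 100 UMIs, ABCA1 was at 13.4 CPM against 1.53 CPM in kept cells of that library. Of its 18 counts 13 lay in barcodes also deposited for the endometrium, and barcodes of no other library gave 4.26 CPM; whether RNA passed between libraries was not tested. In the same barcodes of 1 to 100 UMIs, TM7SF2 and LRP8, with 3 and 4 counts, were at 2.23 and 2.97 CPM against 0.715 and 1.04 CPM. The low cell levels of these 3 genes cannot be told apart from free RNA. In day 9 trophectoderm-like cells SCAP, SREBF2, SQLE and LSS also lay under their free RNA levels of 24.5, 39.3, 58.6 and 64.6 CPM. The same held there for every other member except PMVK, GGPS1, NSDHL, NPC2 and SOAT1. SREBF1, HMGCS1 and SCARB1 were at 11.7, 29.8 and 17.1 CPM, with free RNA at 60.8, 93.5 and 90.5 CPM. The share of free RNA in the day 9 counts of trophectoderm-like cells was not tested. Against all kept cells, free RNA of members other than ABCA1, TM7SF2 and LRP8 was between 0.163 times (GGPS1, 1 count) and 1.52 times (LSS). ACAT2 was at 289 CPM in free RNA against 328 CPM in those cells. For the other 3 libraries barcodes under 500 UMIs were not analysed here, so free RNA could not be set beside their values.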

How the data were processed

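Single-cell RNA of 4 libraries was analysed. The authors deposited UMI counts per gene and barcode; the submitters' processing notes name Cell Ranger 6.1.2 and the build Sscrofa11.1. Per the file headers, Cell Ranger 4 made the day 9 embryo table and 6.1.2 the rest. In the embryo day comparisons the software version and the day cannot be told apart. The counts come from a droplet kit that reads the 3′ end, per the labels' protocols, so levels are not divided by gene length. The authors' own choice of cells is not stated in those sources. Symbols came from the files for 14811 genes and from a reference table for 688 more.

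In the day 9 embryo, barcodes above 2759.47 UMIs were taken as cells (0.1 times the 99th percentile among its 3000 largest totals). Kept cells had 1000 or more UMIs, 500 or more genes and no more than 20% mitochondrial UMIs. Scrublet's method marked 1, 93, 0 and 0 cells (days 9 and 12 of embryo, then of endometrium), so the caller did not work in 3 libraries, and doublets stayed in. Each library was clustered alone in scanpy 1.11.5 (2000 variable genes without the members, 30 components, 15 neighbours, Leiden resolution 0.6, seed 0). A cluster was named for a class with 3 or more high markers (at 0.5 or more of their highest cluster level), and stayed unnamed when markers of another class outnumbered its own among its 10 leading genes, when it had under 50 cells, or when its UMIs were low with no own marker leading.

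Counts were summed per class and library and scaled to CPM. Ratios used genes at 5 CPM or more on a day, and a log2 ratio adds 1 CPM. A member passing 2-fold is counted against the share of all genes that did so. In each day comparison the naming rule ranked members at 20 CPM or more on a day and took up to 5 highest and 5 lowest, with the 5 sensing genes. Since every member is accounted for, the text also gives other members by role, beyond that rule. Members that make up a count of 5 or fewer, and genes leading a cluster, were named after their values were seen. Of each related list, up to 4 genes at 20 CPM or more are named. The members, lists, markers and alternatives were chosen with earlier results of these data known. The ratio step was run on simulated Poisson counts with known folds. No spread between cells or animals was simulated, so this checks the calculation only and not the day ratios.

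No sequence is printed, since none of the tables used here holds one.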

Additional observations from a re-analysis of the deposited data

Results flagged for a closer look

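Several members were 2-fold or more higher on day 12 in 1 class of cells and 2-fold or more lower in another; the difference between classes was not tested in any of these cases. HMGCS1 was 2.85-fold higher in trophectoderm-like and 2.20-fold lower in hypoblast-like cells, FDFT1 2.14-fold higher and 2.77-fold lower in the same pair, and SQLE 3.06-fold higher and 3.79-fold lower. With day 9 cluster 8 counted as trophectoderm-like the values in trophectoderm-like cells were 2.16, 1.40 and 1.15. LSS was 3.40-fold higher in trophectoderm-like cells (1.64-fold with cluster 8) and 3.57-fold lower in stromal-like cells.

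CYP51A1 was 3.27-fold higher in macrophage or monocyte-like cells, from 11 counts on day 9, and 2.91-fold lower in hypoblast-like cells. SCAP was 3.89-fold higher in trophectoderm-like cells and 2.41-fold lower in epithelial-like cells, where it was 1.15-fold lower with the highest Scrublet scores removed. INSIG1 was 2.11-fold higher in T or NK cell-like cells, from 14 counts on day 9, and 5.41-fold lower in hypoblast-like cells. NPC2, the lysosomal cholesterol carrier, was 3.09-fold higher in epithelial-like cells and 9.16-fold lower in trophectoderm-like cells. SCARB1 was 2.27-fold higher in stromal-like cells and 3.12-fold lower in trophectoderm-like cells.

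A signal of ABCA1 stood in uncalled barcodes that no comparison used. In barcodes of 1 to 100 UMIs of the day 9 embryo library that are also deposited barcodes of either endometrium library (19317 barcodes), ABCA1 was at 81.15 CPM (13 counts), against 4.26 CPM (5 counts) in barcodes found in no other library and 1.53 CPM in kept day 9 embryo cells. In those same barcodes DCN, a stromal gene, was at 5019 CPM against 162 CPM in barcodes of no other library, and the enzyme sum at 737 against 1423 CPM.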

How the results depend on the processing

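No paired analysis was possible because each group holds 1 library, and no library could be left out for the same reason; promoter motifs were not searched. Of members ranked by the naming rule and 2-fold or more apart, 11 changed direction, all when the cells of a library were pooled, which mixes classes. Other members did so too, namely HMGCS1, FDFT1, CYP51A1 and DHCR7 in trophectoderm-like cells, MVD and SOAT1 in B or plasma cell-like cells, and LSS in T or NK cell- and macrophage or monocyte-like cells. Of the ranked members, pooled, SQLE (-1.63), SREBF1 (-0.95), LSS (-0.70) and SREBF2 (-0.30) were lower and NPC2 (0.21) higher, against their direction in trophectoderm-like cells, as were INSIG1 (-0.26) and HMGCS1 (-0.028) in T or NK cell-like, IDI1 (-0.50) and HSD17B7 (-0.33) in macrophage or monocyte-like and INSIG1 (-0.26) and INSIG2 (0.43) in B or plasma cell-like cells, all on the log2 scale. The pooled medians were -0.70 (embryo) and -0.38 (endometrium), the pooled sum ratios 0.508 and 0.684, the pooled sums 742 (day 12 embryo) and 575 CPM (day 9 endometrium), and 8 members were 2-fold or more lower and 2 higher in the embryo, 4 lower and 1 higher in the endometrium.

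In trophectoderm-like cells the sum ratio turned to 0.918 (day 9 cells called at 1000 UMIs), 0.9499 (10% mitochondrial maximum), 0.937 (members among the variable genes) and 0.936 (cluster 8 added), with medians of 0.14, 0.19, 0.14 and 0.13 and 4 higher calls each. Median-of-ratios scaling gave medians of -0.60 in hypoblast-like cells (7 lower calls) and 0.81 in trophectoderm-like cells, with 3 lower calls in B or plasma cell-like and 1 in macrophage or monocyte-like cells. A 20 CPM minimum gave 1.04 in trophectoderm-like cells, no minimum -0.62 in hypoblast-like cells, and leaving out cluster 5 gave -0.82 and a sum ratio of 0.414 there. At 2000 UMIs per cell, T or NK cell-like cells had 3 higher and 2 lower calls and a ratio of 1.03, smooth muscle or pericyte-like 3 higher, stromal-like 1 higher and macrophage or monocyte-like 1 lower; hypoblast-like cells had -0.70 and 0.461, epithelial-like a ratio of 1.06, and epiblast- and mesoderm-like sums were 1944 and 1080 CPM. Clustering both days together gave 1 higher stromal-like call, sums of 770 (ciliated) and 1300 CPM (mesoderm-like, 1299.8), and ratios of 1.04 (B or plasma cell-like) and 0.931 (epithelial-like), and no epiblast-like class. Removing the highest Scrublet scores gave 9 lower calls, -0.43 and 0.577 in epithelial-like cells, a ciliated sum of 771 CPM and 1 higher stromal-like call. With mitochondrial and ribosomal protein genes out of the total, hypoblast-like cells had -0.69 and 0.458, other sum ratios were 0.808 (stromal-like), 0.946 (epithelial-like) and 1.17 (trophectoderm-like), sums were 1029 (ciliated), 2612 (epiblast-like) and 1461 CPM (mesoderm-like), and there was 1 higher stromal-like and 1 lower macrophage call. That lower macrophage call also came with a 0.1 CPM pseudocount and with the members among the variable genes. The 10% mitochondrial maximum (ciliated sum 773 CPM), the members among the variable genes and related classes not set against each other also left 1 higher stromal-like call. The cause of these moves was not tested. Leiden resolution 1.0 and leaving out cells with a shared barcode or low-UMI day 12 embryo clusters moved none of the class results. In shallow classes the depth limits single members: 18 of 19 intervals held 1 in B or plasma cell-like cells and 23 of 27 in T or NK cell-like cells.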
